A study of Mus musculus with 18 samples.

Results

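The genes described here are 37 mouse genes that act in uterine receptivity and decidualization, and they were followed through the m6A-seq of the day 5 uterus. They were chosen by name for their role, with earlier results of these data known. A differential m6A peak was counted for a gene when the authors' annotation named that gene at the peak. It was also counted when the gene was assigned to the peak and the peak centre lay between its start and end. By this rule 25 of the 37 genes held 76 of the 40929 peaks examined. Because many peaks in the last exons of these genes were assigned to a neighboring gene, peaks whose centre lay on an annotated exon were also collected. These added 37 peaks, so that 113 peaks in 30 genes are described.

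Pregnant wild-type mice were given daily intraperitoneal injections from day 1 to day 4, and uteri were taken on day 5. The Veh group received vehicle in place of melatonin, and no LPS. The LPS group received lipopolysaccharide, a bacterial cell wall component used to provoke inflammation, on days 3 and 4. The Mel+LPS group received melatonin from day 1 to day 4 and LPS 30 min after it on days 3 and 4. Each group gave 3 input libraries of fragmented RNA and 3 libraries immunoprecipitated with an antibody against N6-methyladenosine (m6A). The RNA came from the uterus as a whole, so a change in the number of cells of a type and a change in RNA per cell cannot be told apart.

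Before implantation, progesterone from the ovary makes the uterine epithelium secrete Indian hedgehog, which acts on the stroma below it, while epithelial growth to estrogen is held back. The attaching embryo and EGF family ligands then start BMP and Wnt signaling in the stroma, whose fibroblasts differentiate into the decidua that feeds the embryo before the placenta forms. m6A is a methyl mark on adenosines of mRNA, set mostly in a short sequence context called DRACH, and it is known to affect mRNA stability, splicing and translation.

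In the authors' deposited tables a peak is a stretch of genome that differed in m6A signal between treatments, either up or down. No RNA level is given with it, so a change in methylation and a change in the amount of an RNA cannot be told apart. LPS vs Veh is called the LPS comparison here, and Mel+LPS vs LPS the melatonin comparison. Each peak has 1 score, a log likelihood ratio from MACS2 that grows with the evidence for a difference and is not a fold change. There is no value for a single library, so no replicate error can be given and no comparison below was tested. The table of peaks down in the LPS comparison is complete for chromosomes 1 to 9 only, where 20 of the 37 genes lie, and it was used there alone. Both comparisons contain the same LPS libraries, so a peak that is up in one and down in the other at the same site is not a pair of independent measurements. A gene without a peak has no listed difference, which says nothing on whether it carries m6A.

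The receptivity and decidualization genes held differential peaks in a larger share than protein-coding genes at large. They had been chosen with earlier results of these data known, so these shares are not independent of that choice. In the LPS comparison, 11 of 37 (29.7%) had an up peak, against 20.1% of 21887 protein-coding genes. On chromosomes 1 to 9, 10 of 20 (50%) had a down peak, against 22.0% of 11966 genes. As for the melatonin comparison, 17 of 37 (45.9%) had an up peak against 25.6% of all genes, and 9 of 37 (24.3%) had a down peak against 15.3%. Over the 4 tables the share was 67.6%, against 42.3%. The genes had a longer median transcript than all protein-coding genes, at 3352 against 2570 bases, and the tables give no expression level. The part of length and expression in these shares was not tested.

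When only genes with a peak in some table were counted, much of this distance was gone. Of the 25 such genes, 11 (44.0%) had a peak up in the LPS comparison, against 47.6% of all genes with a peak. Peaks down in the melatonin comparison were held by 9 (36.0%), against 36.2%. Peaks up in the melatonin comparison were held by 17 (68.0%), against 60.6%. The peaks down in the LPS comparison stood farthest from the other genes, with 10 of 14 (71.4%) on chromosomes 1 to 9, against 49.2%. The Wilson interval of this share, for counting error only, was 45.35% to 88.28% and so covered the 49.2%.

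**Figure D1:**
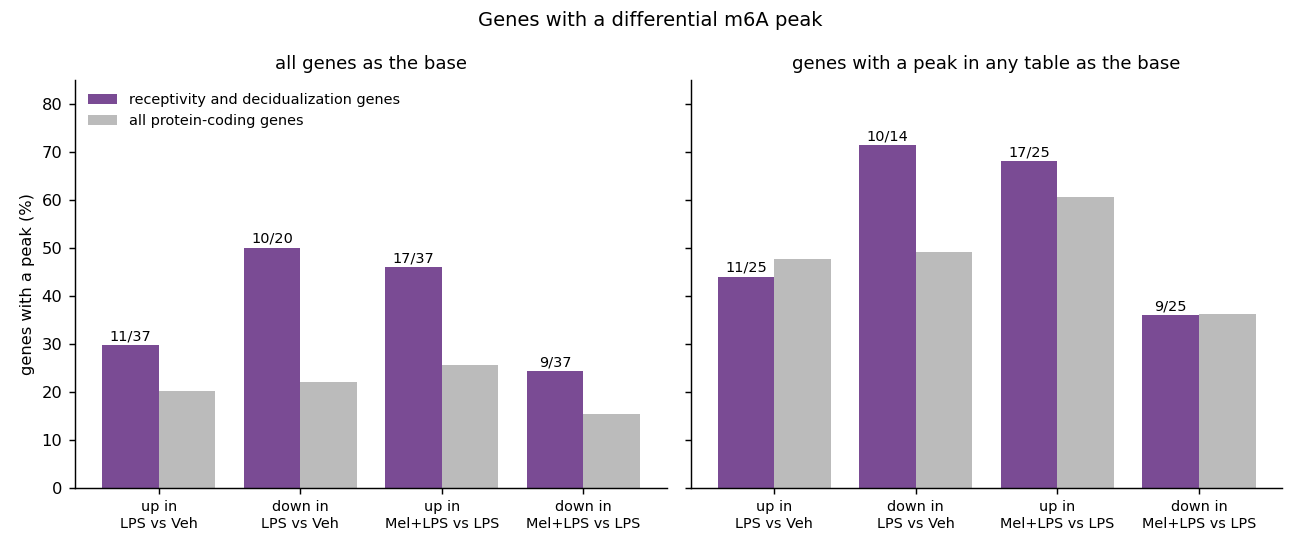
Percent of the receptivity and decidualization genes (purple, with counts above the bars) and of all protein-coding genes (gray) that held a differential m6A peak, by table, with all genes as the base on the left and genes with a peak in any table as the base on the right. LPS-down bars cover chromosomes 1 to 9, and the gap between purple and gray on the right is widest there (71.4% against 49.2%). The Wilson interval of the 71.4%, for counting error only, is 45.35% to 88.28% and covers the 49.2%.

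Counting peaks by their place on GENCODE exons gave a similar picture. By that count 13 of 37 genes (35.1%) had a peak up in the LPS comparison, against 15.8% of genes. A peak down in the LPS comparison was found in 9 of 20 (45.0%), against 16.0%. For the melatonin comparison, 14 of 37 (37.8%) had an up peak against 19.5%, and 9 (24.3%) had a down peak against 12.1%. Over all tables, 26 of 37 (70.3%) had an exon peak, against 35.8%. The 7 genes with no peak under either count were Gata2, Areg, Ereg, Acvr1, Msx2, Klf5 and Prl8a2. Msx2, Klf5 and Prl8a2 lie outside the chromosomes where down peaks in the LPS comparison were analysed. Erbb2, Foxm1, Fst, Hbegf and Wnt7a had peaks on their exons only.

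On chromosomes 1 to 9 the genes leaned, by the rule, toward peaks down in the LPS comparison. Of their 26 peaks there, 18 (69.2%) were down, against 51.5% of 7435 peaks of all genes. Hand2, Bmp2, Wnt4, Foxo1, Klf4, Cebpb, Fkbp4, Alpl and Spp1 had only down peaks, Sox17, Bmpr2, Foxa2 and Msx1 only up peaks, and Ihh had both. These 9 down-only genes were 64.3% of 14 genes, while 42.5% of 4149 genes with a peak in this comparison were down only. Exon peaks moved Foxo1 to the genes with both directions and brought in Wnt7a with both and Foxm1 with down peaks. With them 9 genes were down only, 4 up only and 3 had both. The down-only genes and the down peaks then each made up a smaller share.

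The peaks of the melatonin comparison were mostly up, for these genes and for all genes. Of the 41 peaks of the receptivity and decidualization genes, 31 (75.6%) were up, against 68.0% of 13738 peaks. Ihh, Ptch1, Hand2, Bmp2, Bmpr1a, Wnt4, Wnt5a, Foxo1, Hif1a, Fkbp4, Fkbp5, Gja1 and Itgb3 had only up peaks. By the rule, Sox17, Foxa2, Msx1, Dio2 and Spp1 had only down peaks, and Egfr, Bmpr2, Klf4 and Alpl had both. Exon peaks moved Dio2 to the genes with both directions and brought in Fst with up peaks and Hbegf, Erbb2 and Wnt7a with down peaks. The 13 up-only genes were 59.1% of 22, close to the 55.6% of 7542 genes with a peak in this comparison.

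**Figure D2:**
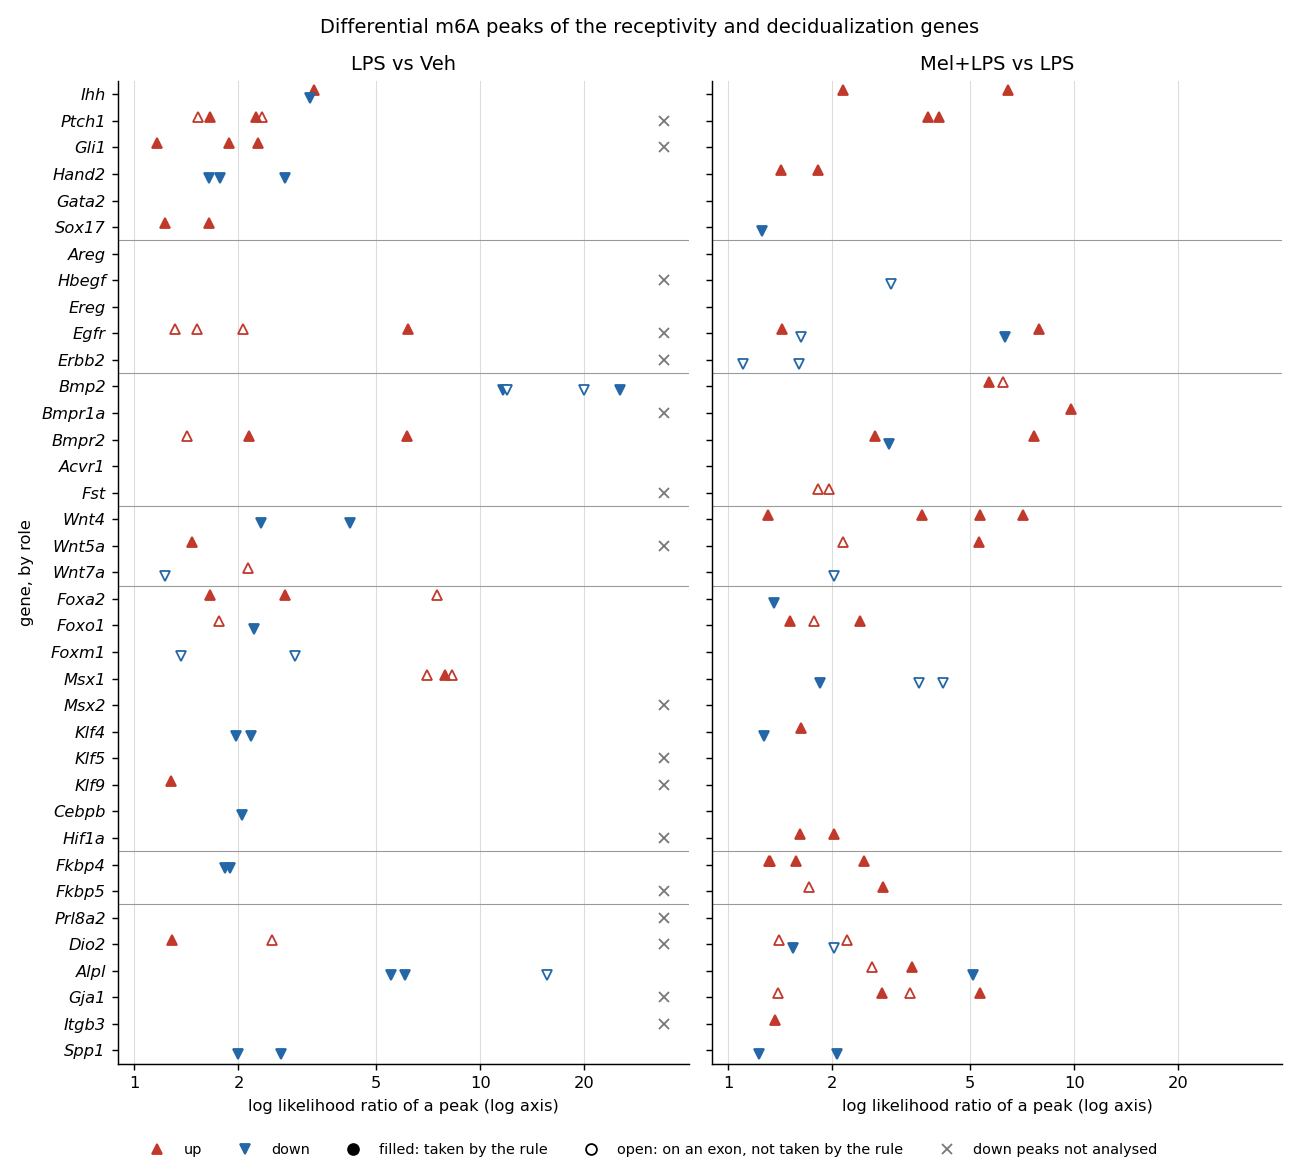
Log likelihood ratio (log axis) of every peak of the 37 genes, in the LPS comparison (left) and the melatonin comparison (right), with genes grouped by role. Triangles pointing up are up peaks and triangles pointing down are down peaks, filled where the annotation rule took the peak and open where it lay on an exon only, and crosses mark the 17 genes whose down peaks in the LPS comparison were not analysed. Bmp2 and Alpl reach the highest scores (25.3 and 15.6, both down in the LPS comparison).

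Within the progesterone and Hedgehog genes, Ihh, the epithelial ligand, held peaks in both directions. A 628-base peak over its 3′UTR was up in the LPS comparison with a score of 3.30, and a 120-base peak overlapping it by 87 bases was also up in the melatonin comparison with a score of 2.15. Upstream on the gene, at chr1:74947975-74948236, a peak was down in the LPS comparison with a score of 3.22 and up in the melatonin comparison with a score of 6.45. The authors' annotation gave this site as 3′UTR, while its centres lay 230 and 199 bases past the nearest GENCODE exon of Ihh. The sequences around the DRACH motif nearest the centre of each 3′UTR peak are shown because the same 3′UTR carried an up peak in both comparisons, with that motif alone in capitals and the gene strand read 5′ to 3′ (GRCm38).
Ihh 3′UTR, up in the LPS comparison, chr1:74945786-74945814: ccatctgtctttGGACTgcttactccaat
Ihh 3′UTR, up in the melatonin comparison, chr1:74946064-74946092: ctgaagggactcTAACCactgccctcctg
The motif nearest the centre is GGACT in the peak of the LPS comparison and TAACC in that of the melatonin comparison. The TAACC window also lies within the peak of the LPS comparison. These peaks hold 21 and 3 DRACH motifs in all, so the motifs do not set the comparisons apart.

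Ptch1, the Hedgehog receptor, and Gli1, the transcription factor and target of the pathway, are downstream of Ihh in the stroma. Ptch1 had 4 peaks up in the LPS comparison toward its 3′ end, with scores from 1.53 to 2.34, and 2 peaks up in the melatonin comparison near its start, with scores of 3.77 and 4.07. Its peaks of the 2 comparisons lay at opposite ends of the gene. Gli1 had 3 peaks up in the LPS comparison, with scores of 1.88, 1.16 and 2.27, and none in the melatonin comparison. The last 2 of these lay where an annotated transcript, Gm47200, runs on the other strand, and the peaks carry no strand. Neither gene lies on chromosomes 1 to 9, so their down peaks in the LPS comparison were not analysed.

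Hand2, a stromal transcription factor that progesterone induces and that holds back estrogen-driven growth of the epithelium, had peaks down in the LPS comparison at 3 separate sites. Its 5′UTR peak scored 2.72, its exon 1 peak 1.64 and its 3′UTR peak 1.77. The 5′UTR and exon 1 sites were up in the melatonin comparison, with scores of 1.81 and 1.42, and no peak was listed at the 3′UTR site. The long antisense gene Hand2os1 covers all 5 peaks, so their strand cannot be told apart here. The 5′UTR window and the exon 1 stretch are shown because peaks of both comparisons cover them, with the motif nearest the centre in capitals in the window and every DRACH in capitals in the exon (GRCm38, plus strand).
Hand2 5′UTR, chr8:57321509-57321537: ccggcgtctgcgGGACTgcctcgcgggag
Hand2 exon 1, coding, chr8:57322126-57322314: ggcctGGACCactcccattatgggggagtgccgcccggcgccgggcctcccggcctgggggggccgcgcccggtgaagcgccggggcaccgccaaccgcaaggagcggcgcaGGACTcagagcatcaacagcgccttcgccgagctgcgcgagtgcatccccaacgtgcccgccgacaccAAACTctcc
The exon stretch holds 3 DRACH motifs in 189 bases, and GGACT is the motif nearest the centre at both sites.

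Sox17, an epithelial transcription factor that acts with the progesterone receptor upstream of Ihh, was listed the other way round from Hand2. It had 2 coding peaks up in the LPS comparison, with scores of 1.64 and 1.23, and 1 down in the melatonin comparison, with a score of 1.25, which lay within the first. All 3 scores lay below the medians of their tables, 2.88 and 3.09. Gata2, which lies upstream of the progesterone receptor, had no peak. The Sox17 stretch is shown as the part that both comparisons cover, with DRACH in capitals (GRCm38, minus strand).
Sox17 exon 5, coding, chr1:4492272-4492421: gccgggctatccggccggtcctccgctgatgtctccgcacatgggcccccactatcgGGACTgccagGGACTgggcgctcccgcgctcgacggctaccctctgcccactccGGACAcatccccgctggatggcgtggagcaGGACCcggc
It holds 4 DRACH motifs in 150 bases, each with the GGAC core.

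Of the EGF family, the ligands Areg and Ereg had no differential peak. Hbegf, the ligand that the epithelium makes at the site of the embryo, had 1 peak over its 3′UTR, down in the melatonin comparison with a score of 2.96. The receptor Erbb2 had 2 peaks down in the melatonin comparison near its stop codon, with scores of 1.60 and 1.10. The receptor Egfr had the most listed peaks of the family. In its last exon 3 peaks were up in the LPS comparison, with scores from 1.31 to 2.06. The site of the lowest, 878 bases past the stop codon, was down in the melatonin comparison with a score of 1.62.

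Another 3 Egfr peaks lay in introns, and 1 beside exon 21 was up in the melatonin comparison with a score of 1.43. The intron peak at chr11:16888911-16889039 was up in the LPS comparison with a score of 6.19 and down in the melatonin comparison with a score of 6.29, and both lay 938 bases from the nearest exon. Those values are shared exactly by 242 and 194 peaks of their tables. Without scores repeated in this way Egfr had no peak by the rule in the LPS comparison. Its other intron peak, 78 bases past an exon, was up in the melatonin comparison with a score of 7.92.

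In the BMP group, Bmp2, which the stroma makes at the site of implantation and which drives decidualization, had the highest scores of all 37 genes. All 4 of its peaks in the LPS comparison were down. They scored 25.3 over the 5′UTR, 11.6 at exon 2, 19.98 over the coding part of the last exon and 11.9 over the 3′UTR, and only 44 of 6259 peaks of that table reached the first value. In the melatonin comparison the 5′UTR and last exon sites were up, with scores of 5.65 and 6.23. The last exon peaks, 815 and 968 bases wide, were annotated as promoter of the microRNA gene Mir3090 and so fell outside the rule. The windows around the DRACH nearest the centre show the 3 Bmp2 exon sites, with that motif in capitals (GRCm38, plus strand).
Bmp2 5′UTR, both comparisons, chr2:133552606-133552634: ggctgccacaaaAGACActtggcccgagg
Bmp2 exon 3, coding, down in the LPS comparison, chr2:133561371-133561399: caagccaaacacAAACAgcggaagcgcct
Bmp2 3′UTR, down in the LPS comparison, chr2:133562460-133562488: ttaggaaaactgTGACTatgtcaggaagt
The motif is AGACA in the 5′UTR, AAACA in exon 3 and TGACT in the 3′UTR, and the 815-base peak holds 28 DRACH motifs in all.

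The receptors of Bmp2 were listed differently. Bmpr1a, a type I receptor, had 1 peak, beside exon 4, up in the melatonin comparison with a score of 9.80, the highest of these genes in that table. Bmpr2, the type II receptor, had 3 peaks up in the LPS comparison, with scores of 6.15, 2.14 and 1.42. In the melatonin comparison it had 2 up peaks on other exons, with scores of 7.66 and 2.66, and 1 down peak, with a score of 2.92, at the exon 10 site that had scored 2.14. The type I receptor Acvr1 had no peak. Fst, an antagonist of activins and BMPs, had 2 exon peaks up in the melatonin comparison, with scores of 1.95 and 1.81.

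Wnt4, a Wnt ligand of the decidualizing stroma, had 6 peaks, all in its last exon. In the LPS comparison 2 were down, over the coding end with a score of 2.32 and 1557 bases past the stop codon with a score of 4.21. Both sites were up in the melatonin comparison, with scores of 1.31 and 3.64. The 3′UTR also held 2 peaks listed in the melatonin comparison alone, up with scores of 7.13 and 5.33. These are shown with the shared 3′UTR site, with the motif nearest the centre in capitals (GRCm38, plus strand).
Wnt4 3′UTR, down in the LPS comparison, chr4:137298314-137298342: aggttccccaagGGACAtaccatacctgg
Wnt4 3′UTR, up in the melatonin comparison at the same site, chr4:137298353-137298381: agaacaccagccAGACTgtcaagaaccta
Wnt4 3′UTR, up in the melatonin comparison alone, chr4:137297125-137297153: ggctgtccacatTGACCactgttgactac
Wnt4 3′UTR, up in the melatonin comparison alone, chr4:137299005-137299033: ttgtcattttgtGGACActataccaagaa
GGACA is the motif nearest the centre of the down peak and of the 5.33 peak. For the overlapping peak it is AGACT, and for the 7.13 peak TGACC. Both windows of the shared site lie within both of its peaks, which hold 16 and 12 DRACH motifs.

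Wnt5a, a stromal ligand of noncanonical signaling, had an up peak in exon 5 in the LPS comparison with a score of 1.47, and up peaks in exon 4 and in the 5′UTR in the melatonin comparison with scores of 5.29 and 2.15. Its sites in the 2 comparisons did not overlap. Wnt7a, an epithelial ligand needed for gland formation, had exon peaks only. A 3′UTR peak was down in the LPS comparison with a score of 1.23, and a peak over the coding end was up with a score of 2.13. A peak that overlapped the latter by 74 bases was down in the melatonin comparison with a score of 2.02.

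**Figure D3:**
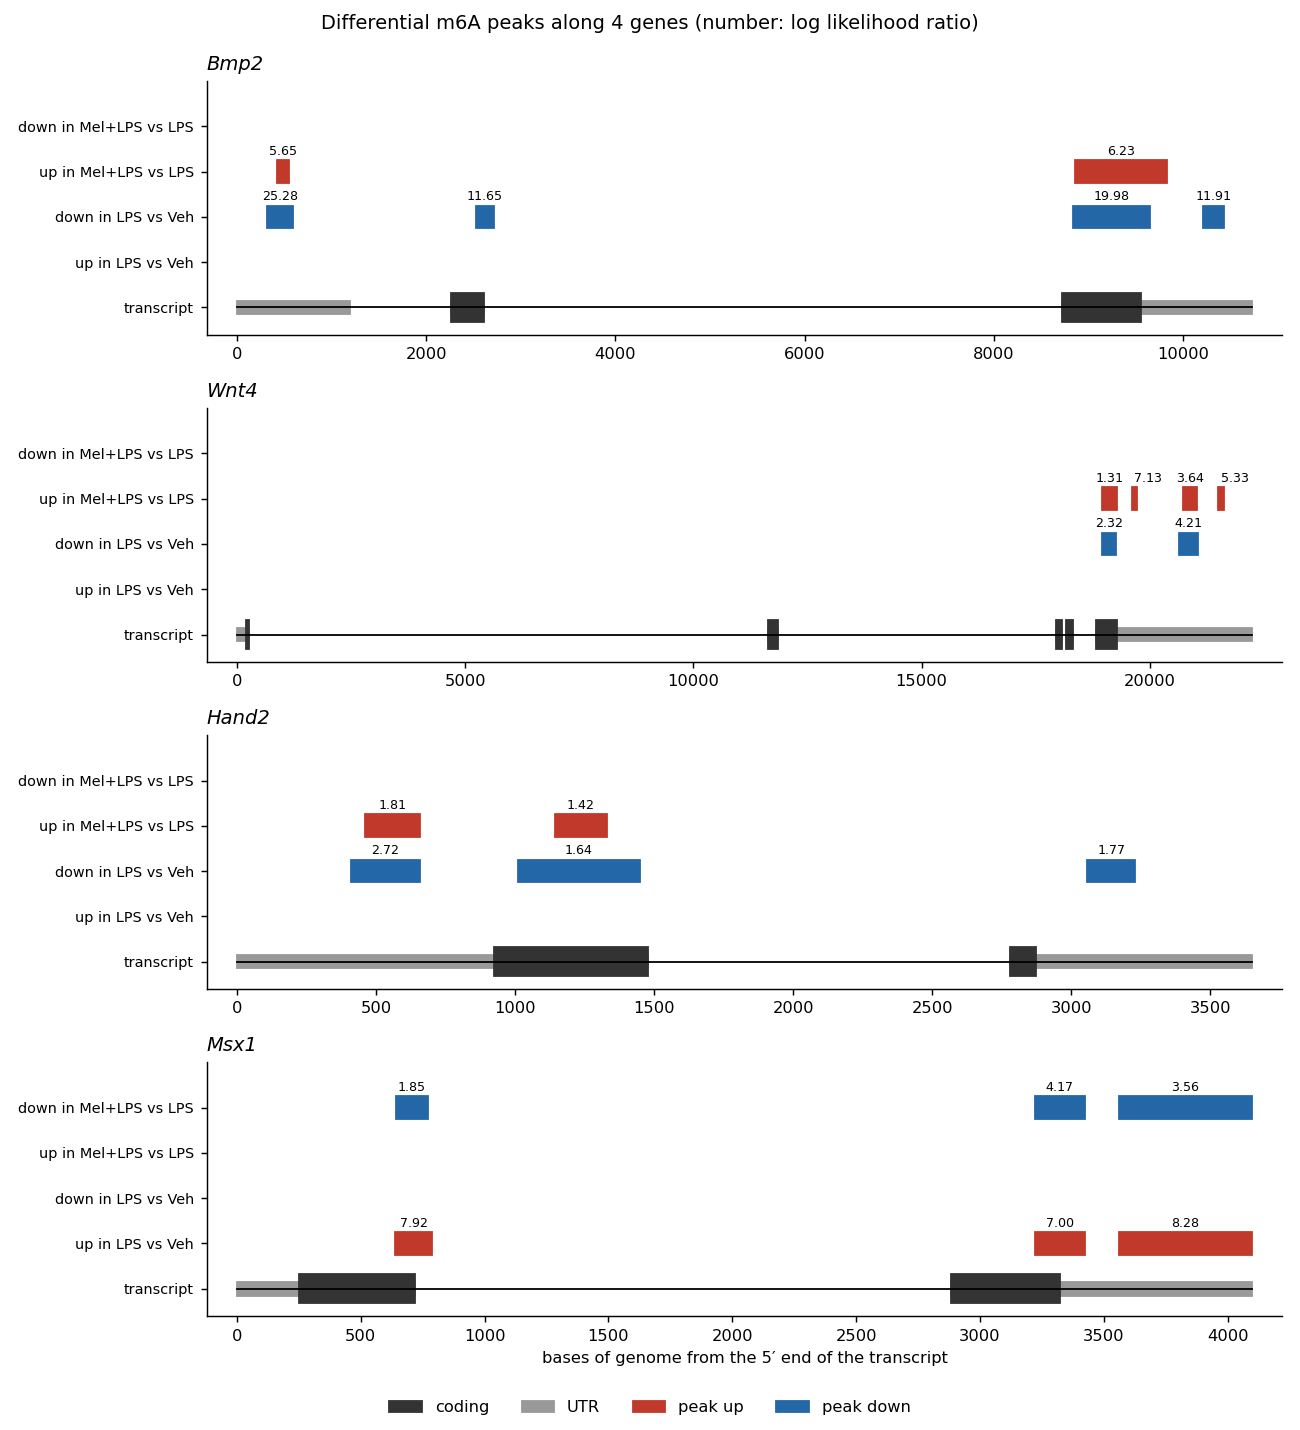
Peaks of Bmp2, Wnt4, Hand2 and Msx1 along the genome from the 5′ end of 1 GENCODE transcript (x axis, bases), with coding parts in dark gray, UTRs in light gray, up peaks in red, down peaks in blue and the score above each peak. Bmp2, Wnt4 and Hand2 are down in the LPS comparison and up in the melatonin comparison at shared sites, and Msx1 is up and then down at 3 sites.

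Among the other transcription factors, Msx1 had the most even pattern. Msx1 is a homeobox factor of the receptive epithelium and stroma that is normally lost once the embryo attaches. Its 3 sites were up in the LPS comparison, with scores of 7.92 in exon 1, 7.005 at the stop codon and 8.28 in the 3′UTR, and each was down in the melatonin comparison, with scores of 1.85, 4.17 and 3.56. The 3′UTR and stop codon peaks had the same start and end in both tables. Both were assigned to the antisense gene Msx1os rather than to Msx1, which leaves 1 site by the rule. The exon 1 stretch shows every DRACH in capitals and the other windows the motif nearest the centre (GRCm38, minus strand).
Msx1 exon 1, coding, chr5:37823865-37823943: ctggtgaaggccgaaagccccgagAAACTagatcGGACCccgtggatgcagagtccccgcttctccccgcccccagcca
Msx1 at the stop codon, chr5:37821249-37821277: gcatgtaccaccTGACTtaggtgggtcca
Msx1 3′UTR, chr5:37820762-37820790: ccttccactgtcAAACTctaagcgctttg
At the stop codon, TGACT lies 2 bases from the peak centre. Msx2, the related homeobox gene, had no peak, but its down peaks in the LPS comparison were not analysed.

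Foxa2, the transcription factor of uterine glands, was also up in the LPS comparison, with scores of 2.73 in its coding exon, 1.66 in the 3′UTR after the stop codon and 7.51 farther along the 3′UTR. The middle site was down in the melatonin comparison with a score of 1.36. The highest of these was annotated as promoter of the neighboring gene 9030622O22Rik. Its window is shown with the nearest DRACH in capitals (GRCm38, minus strand).
Foxa2 3′UTR, up in the LPS comparison, chr2:148042998-148043026: acatcccattctGGACAtggtgaaatcca
The motif is GGACA, 32 bases from the centre of the peak.

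Foxo1, a factor of decidualizing stroma and of the receptive epithelium, had different sites in different tables. An intron peak far from any exon was down in the LPS comparison with a score of 2.22, and a 3′UTR peak was up with a score of 1.76. In the melatonin comparison 2 peaks of exon 2 and 1 of the 3′UTR were up, with scores of 2.40, 1.51 and 1.77. None of its sites in the 2 comparisons overlapped. Foxm1, a factor of cell division, had 2 exon peaks down in the LPS comparison, with scores of 2.91 and 1.36, both annotated as promoter of Tex52.

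The Krüppel-like factors and the remaining factors had low scores. Klf4 had 2 3′UTR peaks down in the LPS comparison, with scores of 2.18 and 1.97, and in the melatonin comparison an up peak in exon 3 with a score of 1.62 and a down peak beside exon 4 with a score of 1.27. Klf9, which acts with the progesterone receptor, had 1 peak in exon 1, up in the LPS comparison with a score of 1.27, and Klf5 had none. For Klf9 and Klf5, down peaks in the LPS comparison were not analysed. Cebpb, which stromal cells need to decidualize, had 1 peak in its only exon, down in the LPS comparison with a score of 2.05. Hif1a, the factor of the response to low oxygen, had 2 peaks up in the melatonin comparison, with scores of 2.02 and 1.62, both just past an exon and under the antisense gene Gm15283.

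The cochaperones of steroid receptors had peaks beside many exons. Fkbp4, which the progesterone receptor needs for full activity in the uterus, had peaks at exons 1 and 3 that were down in the LPS comparison, with scores of 1.89 and 1.83. Both sites were up in the melatonin comparison, with scores of 1.32 and 1.31, and exons 4 and 7 had further up peaks with scores of 2.47 and 1.57. All 6 centres lay 38 to 65 bases past the 3′ end of an exon. Fkbp5, which is induced by the glucocorticoid and progesterone receptors and dampens their action, had 2 peaks up in the melatonin comparison, with scores of 2.80 beside exon 7 and 1.71 in the 3′UTR.

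Of the decidua products, Alpl, the alkaline phosphatase that marks decidualizing stroma, had the highest single peak after those of Bmp2. It lay over the 3′UTR and was down in the LPS comparison with a score of 15.6, and a peak within it was up in the melatonin comparison with a score of 2.61. Intron peaks 77 and 103 bases past an exon were down in the LPS comparison with scores of 6.08 and 5.53. In the melatonin comparison another, 61 bases past an exon, was up with a score of 3.40, and one in intron 1, far from any exon, was down with a score of 5.09. The 3′UTR peak was assigned to the neighboring gene Rap1gap, and its window is shown with the nearest DRACH in capitals (GRCm38, minus strand).
Alpl 3′UTR, down in the LPS comparison, chr4:137741919-137741947: aacactccagccGGACAggacacacacac
The motif is GGACA, 4 bases from the centre of the 416-base peak, which holds 12 DRACH motifs.

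Dio2, which activates thyroid hormone in the decidua, had small scores in both directions. Its coding and 3′UTR peaks up in the LPS comparison scored 1.29 and 2.49. In the melatonin comparison its coding peak, overlapping the former by 70 bases, was down with a score of 1.54, and its 3′UTR had up peaks with scores of 2.20 and 1.40 and a down peak with a score of 2.02. Prl8a2, the decidual prolactin-like hormone, had no peak, but its down peaks in the LPS comparison were not analysed.

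Gja1, the gap junction protein connexin 43 that couples decidual cells, had 4 peaks in its coding exon and 3′UTR, all up in the melatonin comparison, with scores of 5.34, 2.79, 3.34 and 1.40. Itgb3, a subunit of an integrin linked to embryo attachment, had 1 peak up in the melatonin comparison with a score of 1.36. Spp1, or osteopontin, a secreted ligand of that integrin, was down in both comparisons. Its scores were 2.65 and 1.997 in the LPS comparison and 2.06 and 1.23 in the melatonin comparison. At its last exon the peaks of the 2 comparisons overlapped by 33 bases.

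The scores of these genes were compared with those of their tables. The median over their peaks up in the LPS comparison was 1.88 (17 peaks), against 2.88 over the whole table. It was 2.27 (18 peaks) against 2.65 for peaks down in the LPS comparison, 2.66 (31 peaks) against 2.17 for peaks up in the melatonin comparison, and 1.69 (10 peaks) against 3.09 for peaks down in the melatonin comparison. By the rule, the median lay above that of the table for the peaks up in the melatonin comparison alone. Among exon peaks, the medians of these genes and of all protein-coding genes were 1.76 against 2.0 for peaks up and 2.25 against 2.03 for peaks down in the LPS comparison, and 2.30 against 2.01 for peaks up and 1.85 against 1.87 for peaks down in the melatonin comparison. On exons, then, 2 of the 4 medians lay above those of all genes and the others below. The table medians include values shared by 50 or more peaks, which made up 4.07% to 17.8% of a table and 2 peaks of these genes, both of Egfr.

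**Figure D4:**
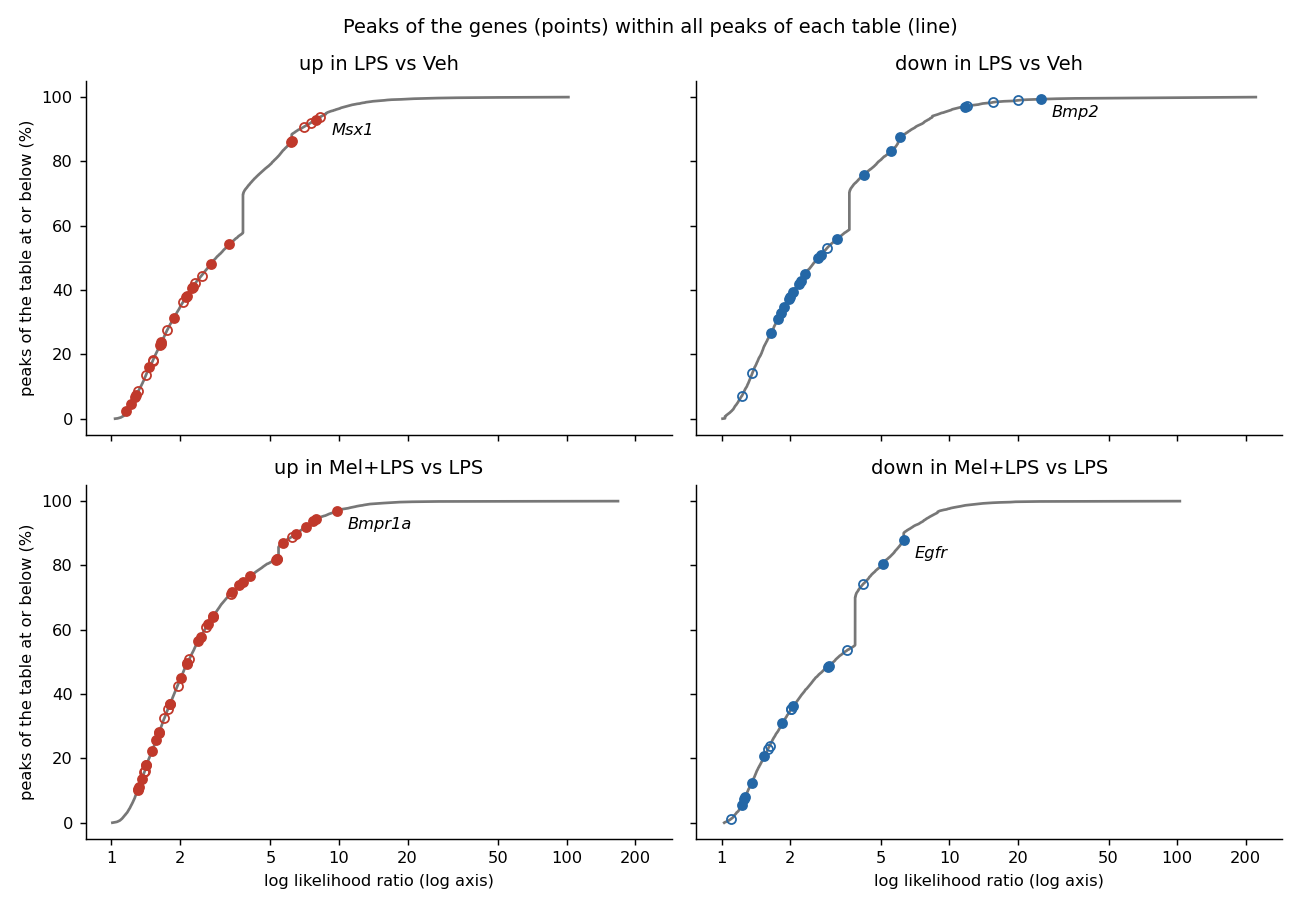
Share of all peaks of each table at or below a log likelihood ratio (gray line, log axis), with the peaks of the receptivity and decidualization genes as points, filled where the annotation rule took them and open where they lay on an exon only. Vertical steps in the line are scores that many peaks share, and the labeled gene is that with the highest score (Bmp2 at 25.3 down in the LPS comparison).

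By the authors' classes, 60.5% of the 76 peaks taken by the rule were in exons, 19.7% in the 3′UTR (Wilson 95% interval 12.3% to 30.0%, counting error only), 13.2% in introns and 5.26% in the 5′UTR. Over 28573 peaks held by all genes the shares were 56.6%, 12.8%, 24.6% and 5.30%. The interval of the intron share was 7.31% to 22.6%. The 76 peaks make up 60 sites once overlapping peaks are merged, and several sites share a gene, so the peaks are not independent and these intervals are too narrow. No difference between these shares was tested. Placing the centres on 1 GENCODE transcript raised the 3′UTR share to 44.3% of 79 exon peaks, against 45.7% for all genes. That count leaves out peaks off the exons and takes in the 3′UTR peaks assigned to neighbors.

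**Figure D5:**
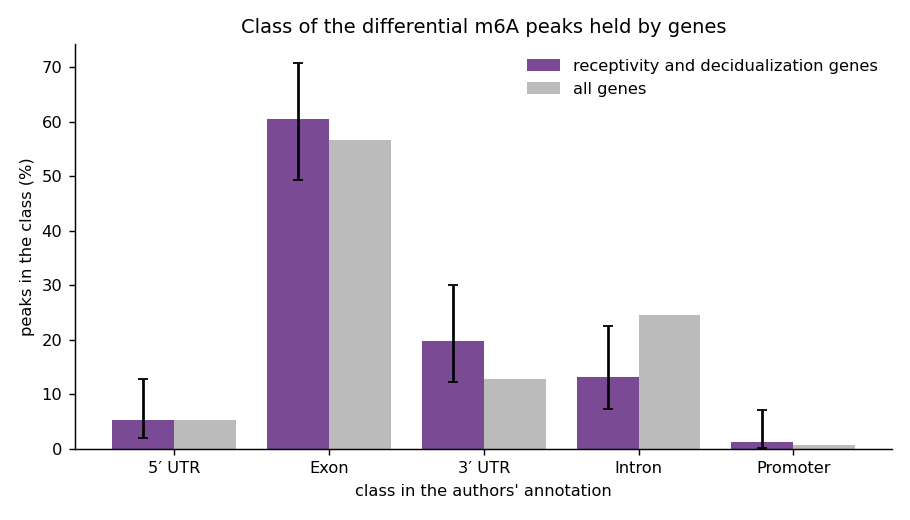
Percent of the peaks held by the receptivity and decidualization genes (purple, 76 peaks, bars with Wilson 95% intervals for counting error) and by all genes (gray, 28573 peaks) in each class of the authors' annotation. Introns hold 13.2% of the former and 24.6% of the latter.

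Many peaks of these genes lay beside an exon rather than on it. Of the 76 peaks, 43 had their centre on a GENCODE exon and 33 did not. Of those 33, 27 lay within 150 bases of an exon, and 26 of the 27 were past its 3′ end, by up to 103 bases. The same held over all protein-coding genes, where 96.6% of 9363 such peaks lay on the 3′ side. The exon peaks of Fkbp4, Bmpr1a, Hif1a and Itgb3 and the intron peaks of Alpl, Spp1 and Egfr nearest to an exon are of this kind. Distances from a motif to a peak centre given above use the centre as listed and were not adjusted for such an offset.

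DRACH, the context of m6A, is a run of 5 bases read as D (any base but C), R (A or G), A, C and H (any base but G). It was searched on the gene strand of the exon peaks. Each of the 79 exon peaks of these genes held at least 1, as did 97.5% of 15569 exon peaks of all protein-coding genes. The density was 24.9 per 1000 bases (Poisson 95% interval 22.7 to 27.3, counting error only), against 24.7 over the exon peaks of all genes. In stretches 100 bases upstream of the listed places it was 23.3, within that interval, against 23.99 for all genes. A DRACH within a peak is thus common and does not by itself mark the site of the difference. In stretches of 101 bases around the centre, 71 of 74 (95.9%) of these genes held a DRACH, against 93.1% of 14018 such stretches. The narrower core GGAC stood in 41 of 74 stretches (55.4%, Wilson 95% interval 44.1% to 66.2%), against 42.4%. Peaks of different tables often cover the same bases, so the 74 stretches are not independent. A match describes the sequence and does not show that the adenosine is methylated.

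Markers of uterine cell types were also looked up, since the samples are whole uteri. Their list was also chosen with earlier results of these data known. Of 23 markers, 18 (78.3%) had a peak in some table, against 42.3% of all genes, and since the tables hold differences only, a marker without a peak may still be present. A peak up in the LPS comparison was found for 4 (17.4%, against 20.1%), a peak down in the LPS comparison for 4 of 12 on chromosomes 1 to 9 (33.3%, against 22.0%), a peak up in the melatonin comparison for 12 (52.2%, against 25.6%) and a peak down in the melatonin comparison for 9 (39.1%, against 15.3%).

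Of 6 epithelial markers 4 (Krt8, Krt18, Krt19 and Cldn4) had a peak down in the melatonin comparison, and Cdh1 had a peak down in the LPS comparison and up in the melatonin comparison. Of 5 stromal markers 4 (Col1a1, Col6a3, Dcn and Pdgfra) had a peak up in the melatonin comparison. Col6a3 also had peaks down in both comparisons. Of 4 myometrial markers 3 (Acta2, Des and Myh11) had a peak up in the melatonin comparison. Both myometrial markers on chromosomes 1 to 9, Cnn1 and Des, had a peak down in the LPS comparison, and Myh11 had a peak up in the LPS comparison and a peak down in the melatonin comparison. Of 5 leukocyte markers 2 (Adgre1 and Ptprc) had a peak up in the LPS comparison and peaks in both directions in the melatonin comparison. Of 3 endothelial markers Kdr had a peak up in the LPS comparison, Cdh5 and Pecam1 a peak up in the melatonin comparison, and Pecam1 also a down peak there. These counts are by the rule. Counted on exons, only 1 stromal marker (Col6a3), but 4 myometrial and 3 endothelial markers, had a peak up in the melatonin comparison. No epithelial or leukocyte marker had one, and 3 epithelial markers had a peak down there. The part of such markers in the peaks of Hand2, Bmp2, Wnt4, Sox17, Foxa2 and Msx1 was not tested.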

How the data were processed

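RNA from mouse uteri of the Veh, LPS and Mel+LPS groups had been sequenced as 18 input and immunoprecipitated libraries. The authors aligned the reads with STAR (2.5.2a) to mm10, used exomePeak2 for peak calling, MACS2 for the differences between treatments and ChIPseeker (1.22.1) for annotation. The deposited tables hold 1 score per peak, which the authors took from MACS2 as a log likelihood ratio, and how replicates were combined is not given in the sources used here. No depth per library is known. The deposited distance to a gene's start was not used.

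Genes were matched by symbol, all 37 in RefSeq and GENCODE (release 21, GRCm38, the build of the files). Exon peaks were found on the exons of all GENCODE basic transcripts of protein-coding genes. Regions and DRACH motifs were taken from 1 GENCODE transcript per gene, the principal isoform and then the longest coding sequence. Sequences came from the GENCODE transcripts. Shares are given beside those over all protein-coding genes, with Wilson and Poisson 95% intervals for counting error, and no test was run, since the tables hold no replicate values. All members are named by role, and the members and lists were chosen with earlier results of these data known. The broken last line of the LPS vs Veh down table and its chromosome 10 peaks were left out. The alternatives were score limits, other rules of gene, class, position and motif, and merged peaks. The steps were tested on simulated peaks. Python 3.11.15, pandas 2.3.3, numpy 2.4.6, scipy 1.17.1 and matplotlib 3.10.9 were used.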

Additional observations from a re-analysis of the deposited data

How the results depend on the processing

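No paired analysis was possible because the deposited tables hold 1 value per peak and comparison and none per replicate. Of 52 alternatives to the counts, medians and shares above, 42 left the value within 1.5 times the count or within its interval, and 10 moved it. The moves came mostly from the score limit. When only scores of at least 3 were kept, the genes with a peak numbered 4 (not 11) up and 4 (not 10) down in the LPS comparison, and 10 (not 17) up and 2 (not 9) down in the melatonin comparison. With at least 2, they numbered 7 up in the LPS comparison and 4 down in the melatonin comparison. The share of all genes was not taken at these limits, nor for the combined and shared-score counts given below. Whether the distance from all genes remains in them was therefore not tested. The 3′UTR share of 19.7% became 44.3% by the centre on 1 transcript and 31.4% with the centre moved 100 bases toward the 5′ end. The median score of peaks up in the melatonin comparison, 2.66, became 4.07 with the highest peak of each gene alone, which was the upper end of its order-statistic 95% interval (1.62 to 4.07) and so was not counted as moved. The DRACH density of 24.9 per 1000 bases became 27.5 in peaks scoring at least 3, and GGAC alone gave 7.30 (5.50 over all genes). Taking rule and exon peaks together gave 13, 12, 19 and 12 genes, and leaving out scores shared by 50 or more peaks gave 10, 10, 17 and 8, in the order above; both were chosen after the data were seen. The lack of replicate values, the unknown depth, the incomplete LPS vs Veh down table and the missing strand limit every statement on a single gene.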

Other observations

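Other genes of the same pathways were looked up by the same rule. They came from a list of 73 genes written by hand, also with earlier results of these data known. Of the 73 genes, 46 (63.0%) had a peak in some table, against 42.3% of all protein-coding genes. A peak up in the LPS comparison was found for 22 (30.1%, against 20.1%), and a peak down in the LPS comparison for 10 of 41 on chromosomes 1 to 9 (24.4%, against 22.0%), where the 37 genes had 10 of 20. The melatonin comparison had a peak up for 31 (42.5%, against 25.6%) and a peak down for 17 (23.3%, against 15.3%).

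Among 12 further Wnt genes 9 (75.0%) had a peak up in the melatonin comparison, with the receptors Fzd1, Fzd6, Lrp5 and Lrp6, the mediators Ctnnb1, Lef1 and Tcf7l2 and the inhibitors Sfrp1 and Sfrp4 among them. Of the 24 further genes of decidualization and implantation 12 had a peak up and 7 a peak down in that comparison. An up peak was found for 5 of 11 further Hedgehog genes (45.5%) and for 6 of 17 further BMP genes (35.3%), Smad4, Smad5, Smad6 and Smad7 among them. Counted on exons, up peaks were held by 18.2% of the Hedgehog, 35.3% of the BMP and 66.7% of the Wnt genes. They were held by 37.5% of the decidualization and implantation genes, and by 19.5% of all genes. By the rule, 36.4% of the Hedgehog and 17.6% of the BMP genes had a down peak in the melatonin comparison, against 15.3% of all genes. Among 10 further EGF family genes none had an up peak there by the rule, though Erbb3 had one on an exon that had been assigned elsewhere. These groups are small, and no difference from the 25.6% of all genes was tested.

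A few genes of that list are named here after their values were seen: those with the highest score in a table, and Lif for its known role. Pgr, the progesterone receptor, had an intron 3 peak that was up in the LPS comparison with a score of 12.5 and down in the melatonin comparison with a score of 11.6, at the same start. Ptgs2, which makes prostaglandins for implantation, had a 3′UTR peak down in the LPS comparison with a score of 21.3. Tdo2, a tryptophan-degrading enzyme of the decidua, had a peak in intron 1 that was up in the melatonin comparison with a score of 30.9, and exon 7 peaks that were down in the LPS comparison with a score of 9.45 and up in the melatonin comparison with a score of 6.55. Lif, the cytokine that prepares the uterus for implantation, had 3 peaks up in the melatonin comparison, with scores of 5.24, 2.41 and 2.29.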
